A study of Homo sapiens with 6 samples.

Results

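Genes for 10 enzymes that make serine, pass its carbon to folate and turn homocysteine into cysteine were followed in A549 cells, a human lung adenocarcinoma line, after knockdown of C19orf12. The 10 genes were PHGDH, PSAT1, PSPH, SHMT1, SHMT2, MTHFD2, MTHFD1L, ALDH1L2, CBS and CTH. They were chosen by name for their place in the pathway, with earlier results of these data known. All 10 were found by Entrez gene number among the 20824 genes listed in the deposited files. Polyadenylated RNA was sequenced from 2 groups of 3 libraries. The control group carried a scrambled shRNA (sh-scramble), which the submitters use as wild type, and the other group carried an shRNA against C19orf12. All 3 knockdown titles name the same hairpin, so effects of that hairpin on other transcripts and effects of lower C19orf12 cannot be told apart. The labels do not say whether replicates were separate cultures, and p-values measure only the spread between these libraries. In bulk RNA a gene can be lower because fewer cells express it or because each cell holds less of it, and these cannot be told apart here.

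Serine is made from the glycolytic intermediate 3-phosphoglycerate in the order PHGDH (a dehydrogenase), PSAT1 (an aminotransferase) and PSPH (a phosphatase). SHMT1 in the cytosol and SHMT2 in mitochondria then split serine into glycine and a one-carbon unit bound to tetrahydrofolate. In mitochondria MTHFD2 oxidises that unit to formyl-folate, from which MTHFD1L releases formate for export to the cytosol and ALDH1L2 makes carbon dioxide and NADPH. CBS joins serine to homocysteine to form cystathionine, and CTH splits cystathionine into cysteine, a building block of glutathione. Many of these genes are known targets of the stress transcription factor ATF4, whose binding element has the core TGATGNAA (N, any base).

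Upstream sequences are shown for the enzymes that changed and for the member whose window holds that core, so that opposite changes can be set beside the letters before each start. RefSeq windows of 250 bases before to 50 bases after a start (build GRCh38.p14) were found for 7 of the 10 genes, 12 windows in all; those for PSPH, SHMT2 and ALDH1L2 were not analysed here. Each line gives the 250 bases before the start, 5′ to 3′ in the direction of the gene, with TGATGNAA and CCAAT (the box bound by NF-Y, on either strand) in capitals.
PHGDH (chr1:119711684-119711933, plus strand): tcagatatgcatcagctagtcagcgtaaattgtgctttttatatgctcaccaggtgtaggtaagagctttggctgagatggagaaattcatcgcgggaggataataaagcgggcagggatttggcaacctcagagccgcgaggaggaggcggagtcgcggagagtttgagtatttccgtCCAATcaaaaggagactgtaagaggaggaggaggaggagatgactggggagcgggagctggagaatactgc
PSAT1 (chr9:78296875-78297124, plus strand): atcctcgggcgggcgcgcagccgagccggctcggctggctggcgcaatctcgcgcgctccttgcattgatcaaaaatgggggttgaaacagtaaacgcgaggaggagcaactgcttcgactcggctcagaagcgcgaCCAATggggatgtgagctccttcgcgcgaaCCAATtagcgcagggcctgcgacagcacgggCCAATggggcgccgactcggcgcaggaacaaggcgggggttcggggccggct
MTHFD2 (chr2:74198365-74198614, plus strand): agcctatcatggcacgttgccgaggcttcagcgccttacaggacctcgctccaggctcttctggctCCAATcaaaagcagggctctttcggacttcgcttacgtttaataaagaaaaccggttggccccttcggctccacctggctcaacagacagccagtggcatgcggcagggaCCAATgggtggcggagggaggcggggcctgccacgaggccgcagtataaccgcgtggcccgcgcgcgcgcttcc
MTHFD1L (chr6:150866236-150866485, plus strand): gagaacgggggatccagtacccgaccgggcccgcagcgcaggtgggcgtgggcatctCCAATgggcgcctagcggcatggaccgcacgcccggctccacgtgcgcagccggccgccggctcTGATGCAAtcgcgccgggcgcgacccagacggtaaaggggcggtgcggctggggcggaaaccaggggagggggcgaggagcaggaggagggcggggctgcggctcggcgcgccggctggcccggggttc
CBS, most upstream start (chr21:43076378-43076627, minus strand): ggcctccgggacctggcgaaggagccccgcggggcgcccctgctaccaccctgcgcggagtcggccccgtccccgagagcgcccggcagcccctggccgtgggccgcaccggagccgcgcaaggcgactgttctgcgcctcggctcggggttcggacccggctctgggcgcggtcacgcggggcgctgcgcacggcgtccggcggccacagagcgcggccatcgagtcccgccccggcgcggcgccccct
CBS, middle start (chr21:43075836-43076085, minus strand): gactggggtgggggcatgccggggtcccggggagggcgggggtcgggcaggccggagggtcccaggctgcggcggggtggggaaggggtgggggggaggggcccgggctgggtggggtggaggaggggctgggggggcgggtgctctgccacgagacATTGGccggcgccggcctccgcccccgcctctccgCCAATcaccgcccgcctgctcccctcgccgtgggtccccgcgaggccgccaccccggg
CTH (chr1:70411018-70411267, plus strand): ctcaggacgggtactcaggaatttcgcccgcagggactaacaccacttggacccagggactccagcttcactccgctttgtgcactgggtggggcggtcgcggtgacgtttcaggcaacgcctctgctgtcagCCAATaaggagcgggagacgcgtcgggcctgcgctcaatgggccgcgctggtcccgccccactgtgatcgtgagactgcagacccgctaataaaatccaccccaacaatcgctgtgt

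On either strand TGATGNAA was found in 3 of the 12 windows, against 3.62% of all 35116 windows. All 3 are overlapping windows of MTHFD1L that hold the same site, so 1 of the 7 genes has it. There it reads TGATGCAA and begins at base -129 from the start shown. The core TGACNNNGC of the element bound by NRF2 was found in 2 of the 12 windows, in MTHFD2 at base 7 after the start and in CBS at base -83 from the most upstream start, against 13.3% of all windows. CCAAT, searched after the sequences had been seen, was found in 10 of the 12 windows, against 34.6% of all windows, and in all 7 genes. The same 3 MTHFD1L windows share a single CCAAT, which is counted in each. PSAT1 held it 3 times on the coding strand, at bases -113, -83 and -52. It was present both before PSAT1, which fell, and before CTH, which rose. A match of letters is a description and shows no binding.

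Library totals lay between 10229890 and 10647587 estimated counts, and the member genes had between 298 and 7071 counts in a library. C19orf12 itself was lower in every knockdown library than in every scramble library, with a log2 fold change of -0.95 (SE 0.20, edgeR adjusted p = 0.0150). That call was lost without knockdown replicate 1, 2 or 3, at 0.0908, 0.0755 and 0.0879 by edgeR. Leaving out scramble replicate 3 gave a log2 fold change of -0.73 (edgeR adjusted p = 3.17e-08). The knockdown mean of C19orf12 was 51.6% of the scramble mean, and 60.4% when only scramble replicates 1 and 2 were averaged. Scramble replicate 3 stood apart: its log2 levels correlated at 0.952 and 0.953 with scramble replicates 1 and 2, which correlated with each other at 0.991. Of the epithelial markers KRT8, KRT18 and CDH1 were abundant, while EPCAM did not exceed 2.60 CPM (scaled counts, per library total) and KRT19 did not exceed 2.70 CPM. Summed over 5 epithelial markers the level was 3197 to 4671 CPM in scramble and 10217 to 10407 CPM in knockdown libraries. Markers of other cell types had low sums. The 5 fibroblast markers summed to 36.7 to 47.8 and 23.6 to 25.9 CPM, nearly all COL1A1. The 4 endothelial markers summed to 2.81 to 4.18 and 3.40 to 4.07 CPM, and the 5 immune markers, nearly all CD68, to 37.7 to 51.0 and 48.3 to 54.5 CPM; CD3E was in no file. The part of these differences in the results below was not tested.

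The comparison of knockdown with scramble asked which of these steps differ when C19orf12 is lowered. PHGDH, PSAT1, MTHFD2 and CBS fell and CTH rose, while PSPH, SHMT1, SHMT2, MTHFD1L and ALDH1L2 did not pass the test. A gene was called changed where edgeR's quasi-likelihood test gave a Benjamini-Hochberg adjusted p under 0.05 over all 14812 genes tested. By that rule 4 of the 10 members were lower, against 5.64% of all genes, and 1 was higher, against 5.89% (11.5% of all genes in either direction). The median log2 fold change of the 10 was -0.51, against 0.02 over all genes. The members were chosen with earlier results of these data known, so these shares and medians are descriptions and test nothing. In 6 members every knockdown library lay below every scramble library (18.6% of all genes), in 1 every knockdown library lay above (18.4%, or 37% either way), and in 3 the groups overlapped. Without scramble replicate 3 the calls were 6 lower and 3 higher, where 23.8% and 25.7% of all genes were called, 49.5% in all. Those calls rest on the small spread between the remaining libraries.

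**Figure D1:**
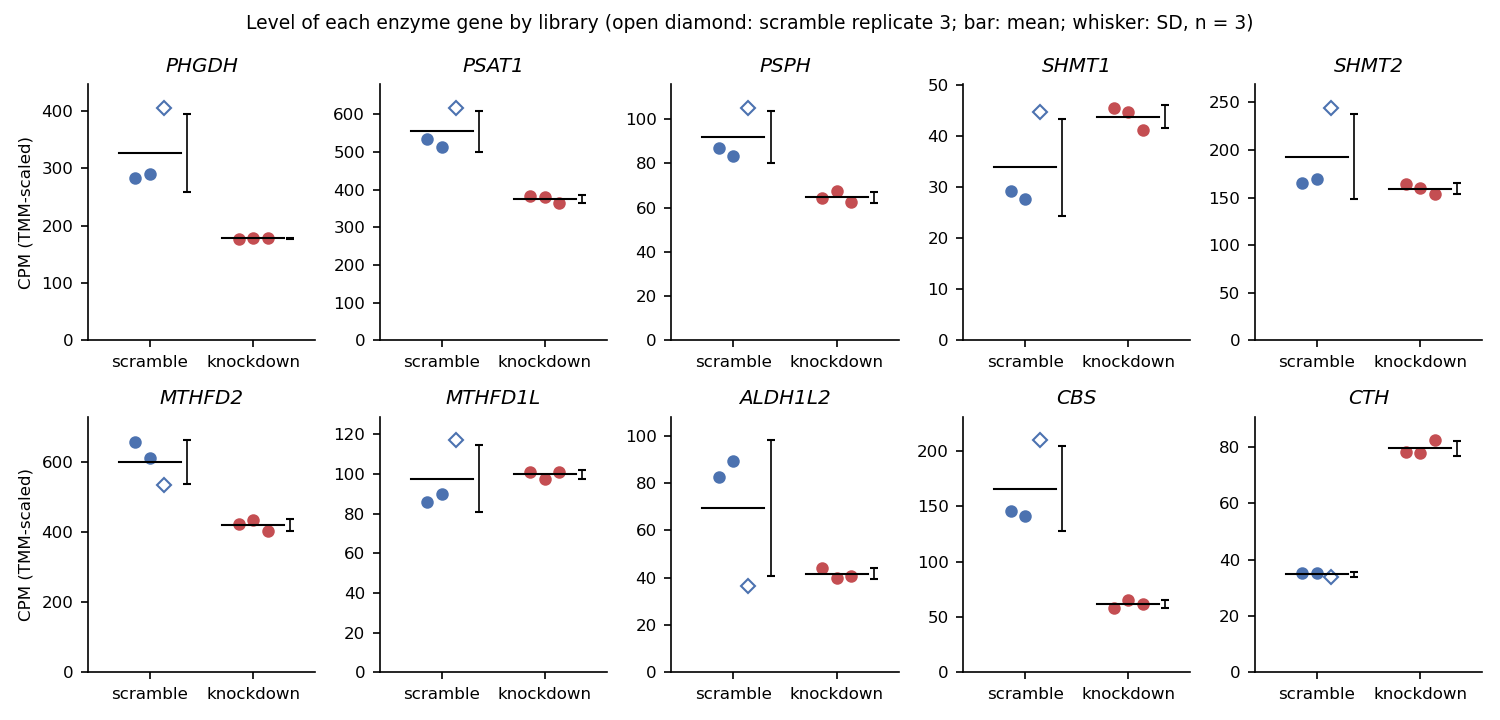
Level of each of the 10 enzyme genes in CPM (vertical axis, from 0) in each scramble (blue) and knockdown (red) library, with group means as bars and SDs of 3 libraries as whiskers; scramble replicate 3 is the open diamond. The 3 knockdown libraries of a gene lie close together, and scramble replicate 3 lies above the other 2 scramble libraries in 7 genes and below them in 3.

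PHGDH (Entrez gene 26227, chromosome 1), which takes the first step out of glycolysis, was at 284, 291 and 406 CPM in the scramble libraries and at 177, 179 and 178 CPM in the knockdown libraries. Values are in the order of replicates 1, 2 and 3 here and throughout. The groups did not overlap, and the scramble range came from replicate 3. Means were 327 ± 68.6 and 178 ± 1.01 CPM (SD, n = 3 each), and the knockdown mean was 54.5% of the scramble mean. This is a log2 fold change of -0.88 (SE 0.17, edgeR adjusted p = 0.0111), and of -0.69 (SE 0.04, edgeR adjusted p = 1.1e-12) with scramble replicate 3 left out. With knockdown replicate 1, 2 or 3 left out the call was lost, at adjusted p = 0.0730, 0.0720 and 0.0751.

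PSAT1 (Entrez gene 29968, chromosome 9), the aminotransferase of the next step, measured 535, 515 and 618 CPM in the scramble and 383, 380 and 364 CPM in the knockdown libraries. Every knockdown library was below every scramble library, with means of 556 ± 54.7 and 376 ± 9.77 CPM. The knockdown level was 67.6% of scramble, a log2 fold change of -0.56 (SE 0.14, adjusted p = 0.0282 by edgeR). Leaving out scramble replicate 3 gave -0.48 (edgeR adjusted p = 1.01e-10). PSAT1 no longer passed when scramble replicate 1 was left out (0.0624) or when knockdown replicate 1, 2 or 3 was (0.152, 0.155 and 0.180). It also did not pass with the replicate number in the fit as a block (edgeR adjusted p = 0.0797).

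PSPH (Entrez gene 5723, chromosome 7), whose product removes the phosphate to give serine, was at 86.9, 83.2 and 105 CPM in scramble and 64.1, 67.5 and 62.5 CPM in knockdown libraries. These groups also did not overlap, and the means of 91.8 ± 11.8 and 64.7 ± 2.56 CPM gave a knockdown level of 70.5% of scramble. With all 6 libraries the log2 fold change of -0.50 (SE 0.16) missed the threshold, at adjusted p = 0.0729 by edgeR. It passed without scramble replicate 3 (-0.40, adjusted p = 4.13e-06) and after a correction for GC content and length (-0.50, adjusted p = 0.00119). Expected counts of PSPH were fractional in all 6 libraries, which means that reads shared with other transcripts had been divided by estimate, and its values are uncertain to that extent. The knockdown libraries thus lay below the scramble libraries at all 3 steps of serine synthesis, by a call for 2 of them.

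The hydroxymethyltransferases that take serine onward gave no call with all 6 libraries. The mitochondrial SHMT2 (Entrez gene 6472, chromosome 12) measured 165, 169 and 244 CPM in scramble and 165, 160 and 154 CPM in knockdown libraries. Knockdown replicate 1 and scramble replicate 1 were nearly level, at 164.5 and 165.1 CPM, and the difference between the means of 193 ± 44.6 and 159 ± 5.30 CPM came largely from scramble replicate 3. SHMT2 had a log2 fold change of -0.28 (SE 0.18, edgeR adjusted p = 0.399), which became -0.07 (SE 0.04, edgeR adjusted p = 0.207) with that library left out. SHMT2 was called in none of the 13 alternatives run, with adjusted p from 0.0745 to 0.686.

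The cytosolic SHMT1 (Entrez gene 6470, chromosome 17) measured 29.3, 27.7 and 44.7 CPM in scramble and 45.6, 44.8 and 41.2 CPM in knockdown libraries. Scramble replicate 3 stood at the knockdown level, and the other 2 scramble libraries stood below all knockdown libraries. All 6 libraries gave a log2 fold change of 0.37 (SE 0.21, edgeR adjusted p = 0.308). Leaving out scramble replicate 3 gave 0.62 (SE 0.08, edgeR adjusted p = 3.91e-07), and with the GC and length correction 0.44 (adjusted p = 0.0143).

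MTHFD2 (Entrez gene 10797, chromosome 2), the mitochondrial dehydrogenase and cyclohydrolase, measured 657, 612 and 534 CPM in scramble and 422, 436 and 404 CPM in knockdown libraries. The groups did not overlap, and here scramble replicate 3 was the lowest scramble library, not the highest. Means of 601 ± 62.4 and 421 ± 16.1 CPM put the knockdown level at 70.0% of scramble, with a log2 fold change of -0.51 (SE 0.14, adjusted p = 0.0449 by edgeR) and of -0.59 (adjusted p = 1.18e-11) without scramble replicate 3. This call was close to the threshold. It was lost without scramble replicate 1 or 2 (edgeR adjusted p = 0.136 and 0.109) and without knockdown replicate 1, 2 or 3 (0.211, 0.180 and 0.240). It was also lost with no filter on low counts (0.0580) and with the replicate number as a block (0.111). MTHFD2 had fractional counts in all 6 libraries.

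The 2 enzymes that compete for mitochondrial formyl-folate gave no call with all 6 libraries. MTHFD1L (Entrez gene 25902, chromosome 6), which releases formate, measured 86.0, 89.8 and 117 CPM in scramble and 101, 97.4 and 101 CPM in knockdown libraries. The knockdown values lay between those of scramble replicate 2 and scramble replicate 3, with a log2 fold change of 0.03 (SE 0.17, edgeR adjusted p = 0.934), or 0.18 (edgeR adjusted p = 0.00471) once scramble replicate 3 was left out. The sign turned without scramble replicate 1 (-0.06) or 2 (-0.03). The mean transcript length that the files give for MTHFD1L ran from 2940 to 3221 bases between libraries, the widest range of the 10 genes, with both groups spread over it.

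ALDH1L2 (Entrez gene 160428, chromosome 12), which oxidises formyl-folate, measured 82.4, 89.3 and 36.3 CPM in scramble and 44.2, 40.0 and 40.8 CPM in knockdown libraries. Scramble replicates 1 and 2 stood far above every other library, and scramble replicate 3 was the lowest of all 6. All 6 libraries gave a log2 fold change of -0.73 (SE 0.30, edgeR adjusted p = 0.157). Leaving out scramble replicate 3 gave -1.04 (SE 0.06, edgeR adjusted p = 5.36e-12), a knockdown mean of 48.6% of the scramble mean. With the GC and length correction it was -0.92 (adjusted p = 0.000263). ALDH1L2 had fractional counts in all 6 libraries.

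**Figure D2:**
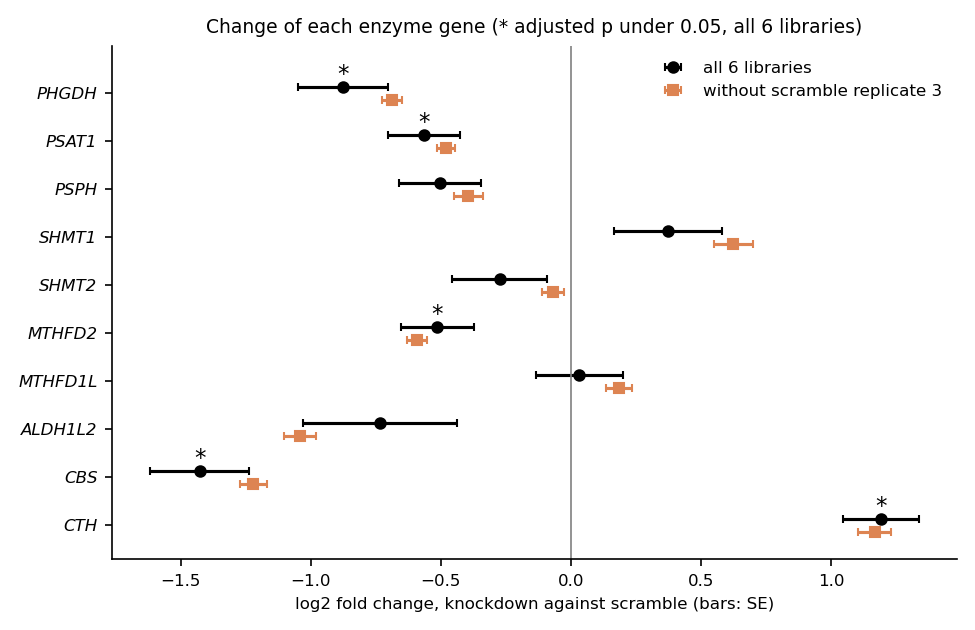
Log2 fold change of each enzyme gene, knockdown against scramble (horizontal axis), with SE bars, from all 6 libraries (black circles) and without scramble replicate 3 (orange squares); stars mark adjusted p under 0.05 with all 6. CBS and CTH lie farthest from 0, at -1.43 and 1.19, on opposite sides.

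CBS and CTH, which act one after the other, moved in opposite directions. CBS (Entrez gene 875, chromosome 21) measured 146, 141 and 210 CPM in scramble and 58.0, 65.0 and 61.6 CPM in knockdown libraries. The groups lay far apart, and scramble replicate 3 was the highest library. The knockdown mean was 37.2% of the scramble mean, and 42.9% of it when only scramble replicates 1 and 2 were averaged. Its log2 fold change was -1.43 (SE 0.19, edgeR adjusted p = 0.00151), and -1.22 (SE 0.05, edgeR adjusted p = 1.47e-14) with scramble replicate 3 left out. CTH (Entrez gene 1491, chromosome 1) measured 35.4, 35.3 and 33.7 CPM in scramble and 78.0, 77.9 and 82.4 CPM in knockdown libraries. It was the member with the closest scramble libraries, with a log2 fold change of 1.19 (SE 0.15, edgeR adjusted p = 0.00096), or 1.17 (SE 0.06, edgeR adjusted p = 7.83e-13) with scramble replicate 3 left out. Both calls held in all 13 alternatives, from -1.54 to -1.22 for CBS and from 1.03 to 1.21 for CTH. CTH had fractional counts in all 6 libraries.

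Ratios within a library do not depend on how libraries are scaled. They can still carry the shift with GC content described below for scramble replicate 3, because GC content differs within each pair. It was 43.8% for CTH and 58.8% for CBS, and 56.5% for SHMT2 and 52.9% for SHMT1. For MTHFD1L and ALDH1L2 it was 52.0% and 42.1%. The part of that shift in the ratios was not tested. The ratio of CTH to CBS in FPKM (a level per length of transcript and depth) was 0.296, 0.305 and 0.196 in scramble and 1.64, 1.47 and 1.63 in knockdown libraries. CBS was thus the more abundant of the pair in every scramble library and CTH in every knockdown library. The difference of the mean log2 ratios was 2.60, a factor of 6.06, and 2.39 without scramble replicate 3. The ratio of SHMT2 to SHMT1 was 6.27, 6.83 and 6.08 in scramble and 4.005, 3.96 and 4.11 in knockdown libraries. The groups did not overlap, scramble replicate 3 stood with the other scramble libraries, and the difference of mean log2 ratios was -0.67, or -0.70 without that library. For MTHFD1L to ALDH1L2 the ratio was 2.47, 2.51 and 8.17 in scramble and 5.93, 5.73 and 6.23 in knockdown libraries, so that scramble replicate 3 lay on the far side of the knockdown libraries. The difference of mean log2 ratios came to 0.69, and to 1.26 when scramble replicate 3 was left out.

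In 2-sided exact permutation tests over the libraries (n = 3 each) the 3 ratios gave p = 0.1, 0.1 and 0.4, and 0.15, 0.15 and 0.4 after Benjamini-Hochberg adjustment over the 3. The smallest p that 3 libraries against 3 can give is 0.1, so no ratio could pass the threshold.

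**Figure D3:**
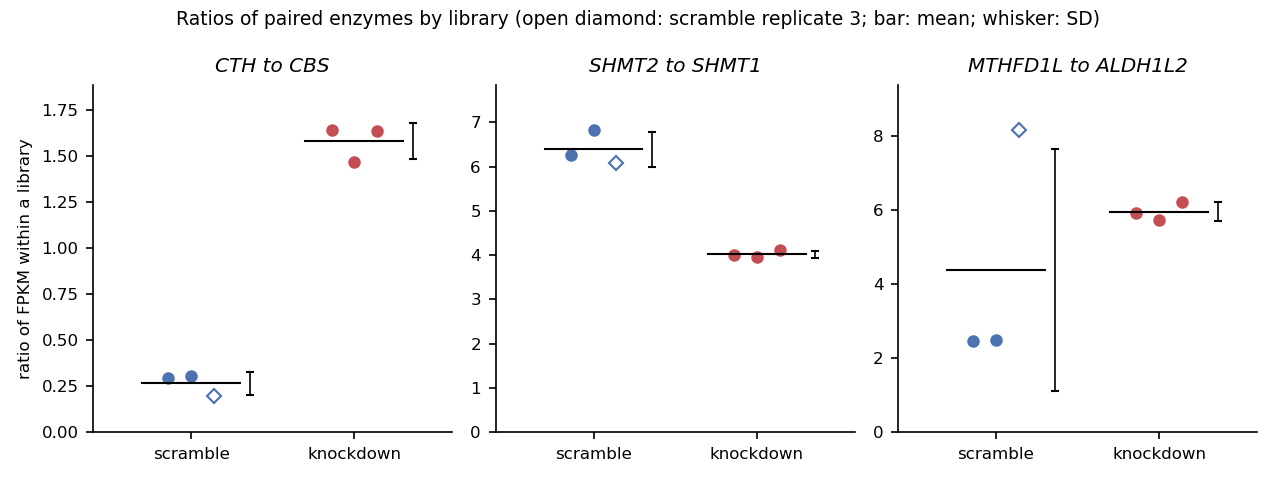
Ratio of FPKM within each library (vertical axes, from 0) for CTH to CBS, SHMT2 to SHMT1 and MTHFD1L to ALDH1L2, with scramble libraries in blue, knockdown libraries in red, means as bars and SDs as whiskers. The CTH to CBS ratio lies below 1 in each scramble library and above 1 in each knockdown library, while for MTHFD1L to ALDH1L2 scramble replicate 3 (open diamond, 8.17) is the highest of all.

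The order of the levels per transcript length was the same at the top in both groups. In scramble libraries MTHFD2 (276 ± 39.2 FPKM) and PSAT1 (250 ± 12.98 FPKM) led, with overlapping libraries, ahead of PHGDH (164 ± 26.6 FPKM). SHMT2 (85.6 ± 15.7) and CBS (64.3 ± 11.8) overlapped in the next places, and PSPH (43.5 ± 3.56) and MTHFD1L (32.0 ± 5.03) followed without overlap. CTH (16.6 ± 1.18), SHMT1 (13.5 ± 3.10) and ALDH1L2 (9.36 ± 4.15) were lowest, each overlapping with the next. In knockdown libraries MTHFD2 (185 ± 6.78 FPKM), PSAT1 (162 ± 3.73), PHGDH (86.3 ± 0.53) and SHMT2 (68.0 ± 2.10) kept the first 4 places, and none of these overlapped with the next. CTH, at 36.4 ± 1.25 FPKM, stood in place 5 instead of 8. CBS, at 23.0 ± 1.31 FPKM, stood in place 8 instead of 5. Between them MTHFD1L (31.8 ± 2.15) and PSPH (29.5 ± 1.11) overlapped, and SHMT1 (16.9 ± 0.78) and ALDH1L2 (5.33 ± 0.27) came last.

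The distance of scramble replicate 3 from the other scramble libraries moved with the GC content of transcripts. Over all tested genes that library was lower than the mean of the other 2 for transcripts low in GC and higher for those rich in GC. For CBS (58.8% GC) its log2 CPM exceeded that mean by 0.55, where the median of 898 genes within 1 percentage point of that GC content was 0.50. PHGDH (57.5% GC) lay 0.50 above, against 0.49 over 956 genes. SHMT2 (56.5% GC) lay 0.55 above, against 0.48. The members low in GC did not all follow the median of genes of like GC. ALDH1L2 (42.1% GC) lay at -1.24, against -0.74 over 1249 genes. MTHFD2 (41.4% GC) lay at -0.25 against -0.81, CTH (43.8% GC) at -0.07 against -0.53, and PSAT1 (44.1% GC) at 0.24 against -0.48. Corrected for GC content and length, 6 members were lower and 2 higher, where 18.7% and 15.4% of all genes were called, 34.1% in all: PSPH, ALDH1L2 and SHMT1 joined the 5 called without the correction, with log2 fold changes of -0.50, -0.92 and 0.44.

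**Figure D4:**
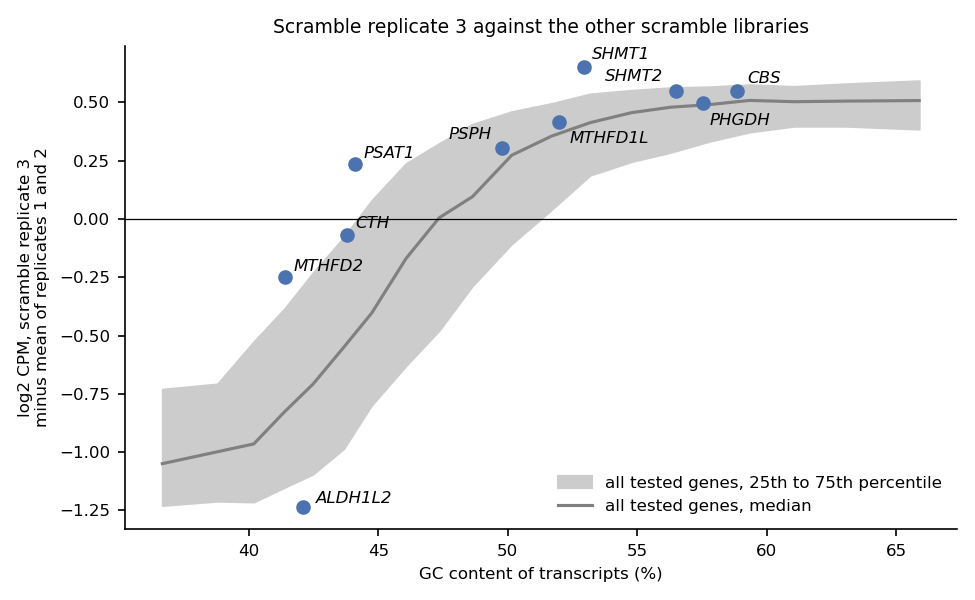
Difference of log2 CPM between scramble replicate 3 and the mean of scramble replicates 1 and 2 (vertical axis) against GC content of the transcripts in percent (horizontal axis), for the 10 enzyme genes (points) and for all tested genes with a GC value (line, median; band, 25th to 75th percentile, in 20 bins of GC). PHGDH, SHMT2 and CBS lie near the median line, PSAT1, MTHFD2 and SHMT1 lie above the band and ALDH1L2 lies below it.

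Around the 10 enzymes, 65 further genes in 9 lists were followed. They were chosen for the steps they serve, also with earlier results of these data known. Of these 58 were tested, and 3 fell (SLC1A4, SLC1A5 and AMT) and 6 rose (among them GGH, GLDC, AHCYL2, SPTLC3 and PKM), with a median log2 fold change of 0.01. Over all genes 5.64% were lower and 5.89% higher. Without scramble replicate 3 the counts were 19 lower and 20 higher, where 23.8% and 25.7% of all genes were called. Without knockdown replicate 1, 2 or 3 they were 1, 0 and 0 lower and 2 higher each time. Those fits called 294, 277 and 269 genes lower and 472, 465 and 460 higher, of 15043, 15049 and 15036 tested. With the GC and length correction the counts were 15 lower and 10 higher, where 18.7% and 15.4% of all genes were called. Shares of this size over all genes stand behind the counts of each list below. Of 14812 genes DESeq2 called 928 lower and 961 higher, and limma-voom called 768 lower and 891 higher. The share of all genes with an unadjusted p under 0.05 was not counted, so list counts by that rule have no background here.

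Of the carriers of serine and glycine, into the cell or into mitochondria, 2 fell. SLC1A4, a serine and alanine exchanger, went from 145 ± 28.9 to 81.1 ± 2.90 CPM (log2 fold change -0.84, adjusted p = 0.0141 by edgeR). SLC1A5, the glutamine carrier that also takes serine, went from 808 ± 194 to 501 ± 6.40 CPM (-0.69, adjusted p = 0.0362). Both calls were lost without knockdown replicate 1, 2 or 3, at edgeR adjusted p = 0.0802, 0.0848 and 0.0993 for SLC1A4 and 0.155, 0.147 and 0.160 for SLC1A5. They were 2 of 8 carrier genes tested that fell and none rose; 1 carrier gene was higher at an unadjusted p under 0.05, and DESeq2 and limma-voom called 0 higher. DESeq2 called 3 lower. The GC and length correction gave 3 lower and 1 higher, and leaving out scramble replicate 3 gave 4 lower and 3 higher. SFXN1, which carries serine into mitochondria, was at 97.1 ± 4.43 and 121 ± 3.37 CPM (0.32, adjusted p = 0.188). SFXN1 passed without scramble replicate 3 (0.36, edgeR adjusted p = 2.21e-06), and did not with the GC and length correction (0.14, adjusted p = 0.491). SLC38A2 was at 401 ± 170 and 425 ± 8.99 CPM (0.08, adjusted p = 0.900, and -0.23, adjusted p = 4.44e-06, without scramble replicate 3).

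The genes of glycine cleavage, which yields one-carbon units in mitochondria, did not move together. GLDC, the decarboxylase that opens the reaction, rose from 13.7 ± 1.33 to 45.9 ± 4.11 CPM (log2 fold change 1.75, SE 0.17, adjusted p = 0.000237 by edgeR), further than CTH. Its scramble libraries were at 13, 12.8 and 15.2 CPM and its knockdown libraries at 45.2, 42.2 and 50.4 CPM. AMT, the aminomethyltransferase of the complex, fell from 4.53 ± 0.81 to 2.13 ± 0.76 CPM (-1.08, adjusted p = 0.0429). The GLDC call held in all 13 alternatives, while that of AMT was lost without scramble replicate 1 or 2 (edgeR adjusted p = 0.0880 and 0.0525) and without knockdown replicate 2 or 3 (0.150 and 0.175). The subunits DLD (0.69, adjusted p = 0.155) and GCSH (0.15, adjusted p = 0.583) did not pass with all 6 libraries. Without scramble replicate 3 both passed (0.40 and 0.18, edgeR adjusted p = 1.3e-06 and 0.0315). That setting gave 3 higher and 1 lower, where 25.7% and 23.8% of all genes were called. DLD also passed with the GC and length correction (0.53, edgeR adjusted p = 0.00403), and GCSH did not (-0.07, 0.778). With the replicate number as a block the values were 0.0447 and 0.739.

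Among folate genes GGH, which trims the glutamate tail of folates, rose from 52.1 ± 9.31 to 90.8 ± 7.24 CPM (0.80, adjusted p = 0.0187 by edgeR). This call was lost without knockdown replicate 1, 2 or 3, at edgeR adjusted p = 0.101, 0.119 and 0.0723, and without scramble replicate 2 (0.0573). The cytosolic enzyme MTHFD1 was at 182 ± 25.8 and 204 ± 0.32 CPM (0.16, adjusted p = 0.579), and the folate carrier gene SLC46A1 at 79.9 ± 19.5 and 124 ± 5.69 CPM (0.63, adjusted p = 0.0654). FPGS, which adds glutamates to folates, was at 53.9 ± 14.7 and 49.0 ± 2.52 CPM (-0.14, adjusted p = 0.737), and TYMS, which makes thymidylate, at 137 ± 26.5 and 130 ± 6.58 CPM (-0.08, adjusted p = 0.817). Without scramble replicate 3 SLC46A1 and MTHFD1 passed (0.85 and 0.28, edgeR adjusted p = 3.03e-11 and 7.46e-06). FPGS and TYMS did not pass there (0.11 and 0.09, edgeR adjusted p = 0.197 and 0.160). SLC46A1 also passed with the GC and length correction (0.66, edgeR adjusted p = 0.00437) and by DESeq2 (0.63, adjusted p = 0.0300).

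In the methionine cycle, which supplies homocysteine to CBS, 1 of 9 tested genes rose and 0 fell. Without scramble replicate 3 the counts were 1 lower and 4 higher, and with the GC and length correction 1 lower and 2 higher. AHCYL2, a relative of the homocysteine-forming hydrolase, went from 29.2 ± 1.499 to 47.1 ± 0.66 CPM (0.69, adjusted p = 0.0163 by edgeR). This call was lost without scramble replicate 1 (0.0623) and without knockdown replicate 1, 2 or 3 (0.110, 0.102 and 0.108). The hydrolase gene AHCY itself was at 477 ± 114 and 413 ± 3.92 CPM (-0.21, adjusted p = 0.532, and 0.01 without scramble replicate 3). MAT2A, which makes S-adenosylmethionine, was at 496 ± 32.4 and 603 ± 17.5 CPM (0.28, adjusted p = 0.215). MAT2A passed without scramble replicate 3 (0.34, edgeR adjusted p = 3.25e-08), and did not with the GC and length correction (0.14, adjusted p = 0.362).

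Of 9 genes tested for cysteine supply, sulfide and glutathione, edgeR, DESeq2 and limma-voom called 0 in either direction, and 0 had an unadjusted p under 0.05 by edgeR. With the GC and length correction 3 were lower and 0 higher, and without scramble replicate 3 the counts were 5 lower and 1 higher. SLC7A11, the cystine importer that brings in cysteine from outside, was at 1114, 1084 and 388 CPM in scramble and 604, 621 and 567 CPM in knockdown libraries. Scramble replicate 3 was the lowest library for it, as for ALDH1L2. Its log2 fold change came to -0.53 (SE 0.33, edgeR adjusted p = 0.371), and to -0.88 (edgeR adjusted p = 1.89e-15) with that library left out. With the GC and length correction it was -0.67 (edgeR adjusted p = 0.00052). GCLC, the first enzyme of glutathione synthesis, was at 251 ± 56.9 and 194 ± 0.83 CPM (-0.37, adjusted p = 0.256 by edgeR, and -0.52, adjusted p = 0.000742, with the GC and length correction).

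Purine synthesis uses formyl-folate at some of its steps, not at all of them. Of 6 of its genes, edgeR, DESeq2 and limma-voom called 0, and 1 was lower at an unadjusted p under 0.05 by edgeR. With the GC and length correction 2 were lower and 0 higher, and without scramble replicate 3 the counts were 3 lower and 1 higher. The log2 fold change of PAICS was 0.03 (adjusted p = 0.922 by edgeR). That of ATIC was -0.29 (adjusted p = 0.324 by edgeR), or -0.27 (adjusted p = 0.0305) with the GC and length correction. Among genes that use serine for lipids, SPTLC3, a subunit of serine palmitoyltransferase, had 1, 1 and 0 counts in scramble and 22, 25 and 29 counts in knockdown libraries (adjusted p = 0.000319 by edgeR), too few in scramble libraries for a fold change. SPTLC1 (0.33, adjusted p = 0.385) and PTDSS1 (-0.18, adjusted p = 0.598) did not pass.

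Of 5 genes that are known to regulate the pathway, PKM rose. It encodes the pyruvate kinase that limits how much 3-phosphoglycerate is left for serine, and went from 1482 ± 362 to 2616 ± 36.8 CPM (0.82, adjusted p = 0.0160 by edgeR). It did not pass without scramble replicate 1 or 2 (0.0580 and 0.0560) or without knockdown replicate 1, 2 or 3 (0.0752, 0.0751 and 0.0735). ATF4 was at 757 ± 187 and 611 ± 11.97 CPM (-0.31, adjusted p = 0.329, and -0.09, adjusted p = 0.0237, without scramble replicate 3). MYC was at 224 ± 44.8 and 156 ± 3.69 CPM (-0.52, adjusted p = 0.0877, and -0.34, adjusted p = 4.49e-07, without that library).

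**Figure D5:**
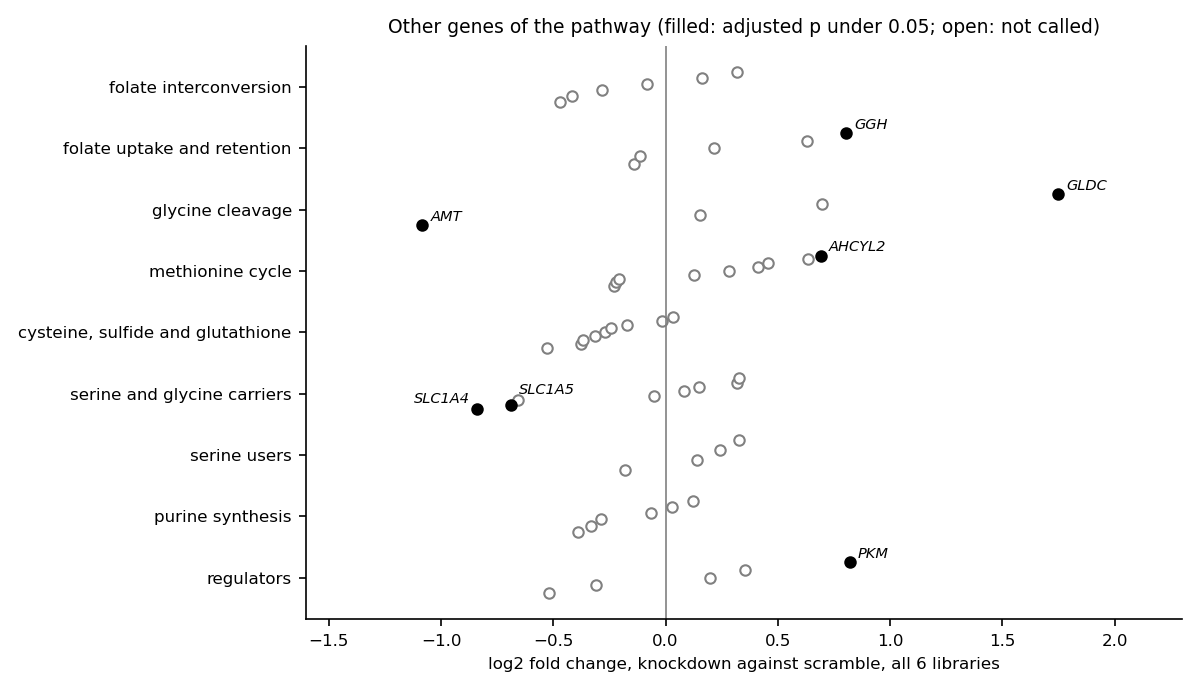
Log2 fold change, knockdown against scramble with all 6 libraries (horizontal axis), of tested genes in the 9 further lists (rows); filled points passed an adjusted p of 0.05 and are named, open points did not. Not every tested gene is drawn, and SPTLC3 is left out because scramble libraries held 0 or 1 counts of it. GLDC at 1.75 and AMT at -1.08 lie farthest out.

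The genes whose log2 CPM over the 6 libraries was most like that of CBS, among 11739 with a mean of at least 5 CPM, were TULP3, TXNDC12 and LARP6, with Pearson r of 0.9999, 0.9997 and 0.9993. TXNDC12, for example, measured 68.6, 66.5 and 91.6 CPM in scramble and 34.4, 36.7 and 35.0 CPM in knockdown libraries. Those most like CTH were RRP1B, NCAM1 and CEACAM6, at 0.9991, 0.9988 and 0.9987. NCAM1 measured 6.13, 5.94 and 5.23 CPM in scramble and 56.1, 55.3 and 54.9 CPM in knockdown libraries, so a like pattern did not mean a like size of change. All points share the same 6 libraries, and these correlations are descriptions.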

How the data were processed

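The deposited files give expected counts per gene, which are RSEM estimates made by the authors, together with FPKM values and the mean transcript length per gene, per the file headers. Tools named per the submitters' processing notes are BWA, RSEM and Bowtie2, with build hg19, and versions and roles were not given in the sources used here. Genes at 0 are not listed, so a missing gene was taken as 0 counts, which allows up to 0.293 CPM (3 counts; counting error only). Entrez numbers were matched to symbols for 20727 of 20824 genes with RefSeq (GRCh38.p14), and GC content came from GENCODE transcripts matched by accession.

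Expected counts were rounded and analysed with edgeR 4.0.16 (R 4.3.3): filterByExpr (minimum count 10, minimum total 15), TMM, glmQLFit and glmQLFTest, knockdown against scramble, no covariates. CPM are TMM-scaled; SE is the log2 fold change divided by the square root of F. GC and length were corrected in each library by splines (5 degrees of freedom) over 14231 genes. DESeq2 1.42.0 and limma 3.58.1 (voom) were alternatives. Named genes of the further lists were run through the alternatives after their values had been seen. Ratios were compared with scipy 1.17.1, and figures drawn with matplotlib 3.10.9.

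The members and lists were chosen with earlier results of these data known. Named are all members, C19orf12, up to 3 called genes with the smallest p and up to 2 uncalled genes with the highest CPM in each further list, the markers, and the genes most like the lowest and highest called member. Some genes that this rule takes are left out of the text.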

Additional observations from a re-analysis of the deposited data

How the results depend on the processing

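CBS and CTH kept their call in all 13 alternatives run. With RLE size factors, DESeq2, limma-voom or no filter on low counts, the counts of called genes stayed within 1.5 times of those reported (1708 over all genes, 4 members lower, 1 higher). The GC and length correction moved the count over all genes to 4858, the members called higher to 2, and the other pathway genes to 15 lower and 10 higher. Leaving out 1 library gave 729 to 7439 calls over all genes, 1 to 6 members lower and 1 to 3 higher, and 0 to 19 other genes lower and 2 to 20 higher; the upper ends are without scramble replicate 3, where the spread between replicates was 2.97% against 18.9% with all libraries. Without 1 library the mean log2 ratios differed by 2.39 to 2.71 for CTH to CBS, -0.70 to -0.62 for SHMT2 to SHMT1 and 0.40 to 1.26 for MTHFD1L to ALDH1L2. Some log2 fold changes of genes not called changed sign when 1 library was left out. They ran from -0.0615 to 0.184 for MTHFD1L, -0.179 to 0.0869 for TYMS, -0.266 to 0.107 for FPGS, -0.317 to 0.00553 for AHCY, -0.232 to 0.268 for SLC38A2, -0.306 to 0.00513 for PTDSS1 and -0.0162 to 0.0664 for PAICS. Corrected for GC and length, signs turned for GCSH (-0.0720, and -0.0518 with the block), SLC38A2 (-0.0734 and -0.0664) and PAICS (-0.195 and -0.179).

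Deviations from the group means of same-numbered libraries correlated at -0.024, -0.018 and -0.023 across genes. The scramble mean includes scramble replicate 3, which stood apart and so enters the deviation of every scramble library. These values therefore cannot show whether replicate numbers pair the libraries. With the replicate number as a block 1654 genes were called, 2 members lower (PHGDH and CBS) and 1 higher, and PSAT1 and MTHFD2 were not called (edgeR adjusted p = 0.0797 and 0.111). With the block and the GC and length correction these counts were 4175, 6 and 2, with 11 other genes lower and 10 higher. The causes were not tested.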
